A study of Mus musculus with 6 samples.

Results

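The 10 genes described here serve the making, movement, breakdown and sensing of prostaglandins: Pla2g4a for release of the substrate, Ptgs2, Ptges and Ptgis for synthesis, Slco2a1 and Abcc4 for transport, Hpgd and Ptgr1 for breakdown, and Ptger2 and Ptger4 for reception. They were taken from a list of pathway genes, matched by the only gene symbol of a probe set in the platform annotation, and all 10 were found among 22180 measured genes. Where a gene had several probe sets the one with the highest mean over the 6 arrays was to be used, but each of the 10 had 1 probe set, so levels chose nothing. Results for some of these genes on these arrays were known when the list was made, so their differences describe selected genes.

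The cells were fibroblast-like synoviocytes (mesenchymal cells of the membrane that lines joints), cultured from the knee synovium of C57BL6 mice and used between passages 4 and 8. In the Mock group they received an adenovirus without an insert, and in the Ad-Epas1 group an adenovirus carrying Epas1, the gene of HIF-2alpha, a transcription factor stabilised when oxygen is low. Both groups were therefore infected, at a multiplicity of infection of 800 for 2 h, and both were cultured for 24 h. Each group had 3 Affymetrix whole-transcript arrays. Replicates are labelled biological, with no word on which came from separate mice or dishes, so p-values reflect only how these samples vary, and that may be partly technical. Arrays are named below by group and replicate number, as Mock 1 or Ad-Epas1 3. The sources used here state neither the age of the mice nor the promoter of the virus. Uninfected cells were not analysed here. Arrays have no read depth, and 3 against 3 limits the precision.

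Prostaglandins are short-lived lipid signals made on demand. Cytosolic phospholipase A2 frees arachidonic acid from membranes, a cyclooxygenase turns it into a common intermediate, and a terminal synthase turns that into prostaglandin E2, prostacyclin or another product. Prostaglandin E2 leaves the cell, acts on receptors at cell surfaces, and is taken up again and inactivated by oxidation and reduction. In the joint, synovial fibroblasts are a known source of prostaglandin E2 in arthritis, and drugs that block cyclooxygenases relieve its pain.

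The promoters of the 4 members that passed the test are printed because these genes carry the differences described below. Each run is the 250 bases before the annotated start, 5′ to 3′ on the gene's own strand, from RefSeq's GRCm38.p6 table, and capitals mark the letters ACGTG or GCGTG on either strand (CACGT or CACGC when read from the other strand), the core that HIF proteins are known to recognise.
Ptgs2, chr1:150099781-150100030, plus strand: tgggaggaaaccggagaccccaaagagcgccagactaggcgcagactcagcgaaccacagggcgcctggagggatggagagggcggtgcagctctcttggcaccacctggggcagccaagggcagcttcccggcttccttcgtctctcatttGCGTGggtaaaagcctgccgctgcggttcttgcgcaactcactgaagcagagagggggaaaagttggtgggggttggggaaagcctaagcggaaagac
Ptges, chr2:30903298-30903547, minus strand: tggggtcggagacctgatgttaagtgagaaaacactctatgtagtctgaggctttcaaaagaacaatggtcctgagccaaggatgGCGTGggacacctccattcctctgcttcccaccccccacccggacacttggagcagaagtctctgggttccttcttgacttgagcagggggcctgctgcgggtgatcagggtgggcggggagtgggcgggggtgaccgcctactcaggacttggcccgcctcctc
Hpgd, chr8:56294302-56294551, plus strand: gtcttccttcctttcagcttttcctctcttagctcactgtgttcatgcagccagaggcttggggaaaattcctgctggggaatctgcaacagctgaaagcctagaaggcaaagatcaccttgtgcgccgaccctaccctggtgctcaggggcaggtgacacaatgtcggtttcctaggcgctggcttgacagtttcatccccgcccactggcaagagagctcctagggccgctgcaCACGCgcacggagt
Ptger4, chr15:5244188-5244437, minus strand: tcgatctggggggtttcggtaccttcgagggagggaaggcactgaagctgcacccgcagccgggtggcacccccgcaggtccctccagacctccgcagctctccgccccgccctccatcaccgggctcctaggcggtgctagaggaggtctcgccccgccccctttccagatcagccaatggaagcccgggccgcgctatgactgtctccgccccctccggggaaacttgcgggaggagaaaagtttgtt
Counted from the start, the core began at base -98 in Ptgs2 and -165 in Ptges, and its reverse complement began at -14 in Hpgd. Ptgs2 had a further site after the start, at chr1:150100039-150100060 on the plus strand, printed with its joined motifs in capitals.
Ptgs2 site: cactACGTCACGTGgagtccgc
There the letters ACGTCA, part of the cyclic AMP response element, began at base 13 after the start and overlapped CACGTG, an E-box, which began at base 17 and holds the core ACGTG on both strands. The window searched was 300 bases, 250 before and 50 after the start, on both strands. Of the 10 members 9 had a window in the table, and 6 of these held ACGTG or GCGTG (Pla2g4a, Ptgs2, Ptges, Slco2a1, Abcc4 and Hpgd). Pla2g4a and Abcc4 had a further window each, without a core, so by window it was 6 of 11. For scale, 43.8% of all 32851 windows held either core, 7.15% held CACGTG and 7.51% held ACGTCA. A match describes letters and not binding, and the windows of the risen Ptgs2 and the fallen Hpgd both held a core.

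The virus was checked first. Epas1 stood at 8.67, 8.71 and 8.51 on Mock 1, 2 and 3 and at 13.14, 13.15 and 13.11 on the Ad-Epas1 arrays, on the log2 scale of the deposited values that is used for all levels below. Macrophage transcripts went against the labels, which describe a culture with few cells bearing the macrophage marker CD14. On 5 arrays 19 of 20 macrophage markers lay above 6.62, the level under which 95% of 1390 olfactory and vomeronasal receptor genes lay, and the exception was Cd163. The summed level of the 20 was 15.60 to 15.86 in Mock and 15.80, 15.60 and 11.93 on Ad-Epas1 1, 2 and 3 (log2 of the sum). On Ad-Epas1 3, 9 of the 20 lay below 6.62, among them Adgre1, Ptprc and Itgam. Of the 20, 4 fell between the groups (limma), where 9.75% of all genes fell. Without Ad-Epas1 3 the 20 went both ways, with 3 that rose, 5 that fell and a median of -0.05, where 24.3% of all genes passed. Mrc1 and C1qa were then at -2.36 and -1.65, and Cd14 and Cd53 at 1.48 and 0.64. The 13 fibroblast markers had a summed level of 15.65 to 15.83 on all 6 arrays, but single markers differed. Pdpn and Prg4 rose (0.73 and 0.55), and Cdh11, Pdgfrb and Col3a1 fell (-1.26, -1.20 and -0.89). Over all 6 arrays 38.5% of the 13 were called, against 16.3% of all genes. Without Ad-Epas1 3, 2 of the 13 rose and 6 fell, where 24.3% of all genes passed. Ad-Epas1 3 is called the macrophage-poor array below, as a description of these levels. In such bulk samples fewer cells of a type and less RNA per cell cannot be told apart. Each result below is therefore given with and without Ad-Epas1 3 where that array matters.

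The cyclooxygenase gene Ptgs2 rose 6.31-fold and the breakdown gene Hpgd fell by 4.84 on the log2 scale, the E2 synthase gene Ptges rose less firmly and the receptor gene Ptger4 fell by 0.78. The other members differed by 0.77 or less. By limma with Benjamini-Hochberg adjustment over all 22180 genes, 2 members rose (Ptgs2 and Ptges), 2 fell (Hpgd and Ptger4) and 6 did not pass an adjusted p of 0.05. Of all genes 16.3% passed, 6.57% upward and 9.75% downward (1458 and 2162 genes). Centring the arrays on their medians turned that split into 1080 and 2742, and a second quantile step into 1913 and 1731. Without Ad-Epas1 3, 4 members rose and 2 fell, where 24.3% of all genes passed, 10.3% upward and 14.0% downward. The median log2 difference was 0.43 over the members and 0.05 over all genes. The groups did not overlap for 5 of the 10 members and for 39.7% of all genes.

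**Figure D1:**
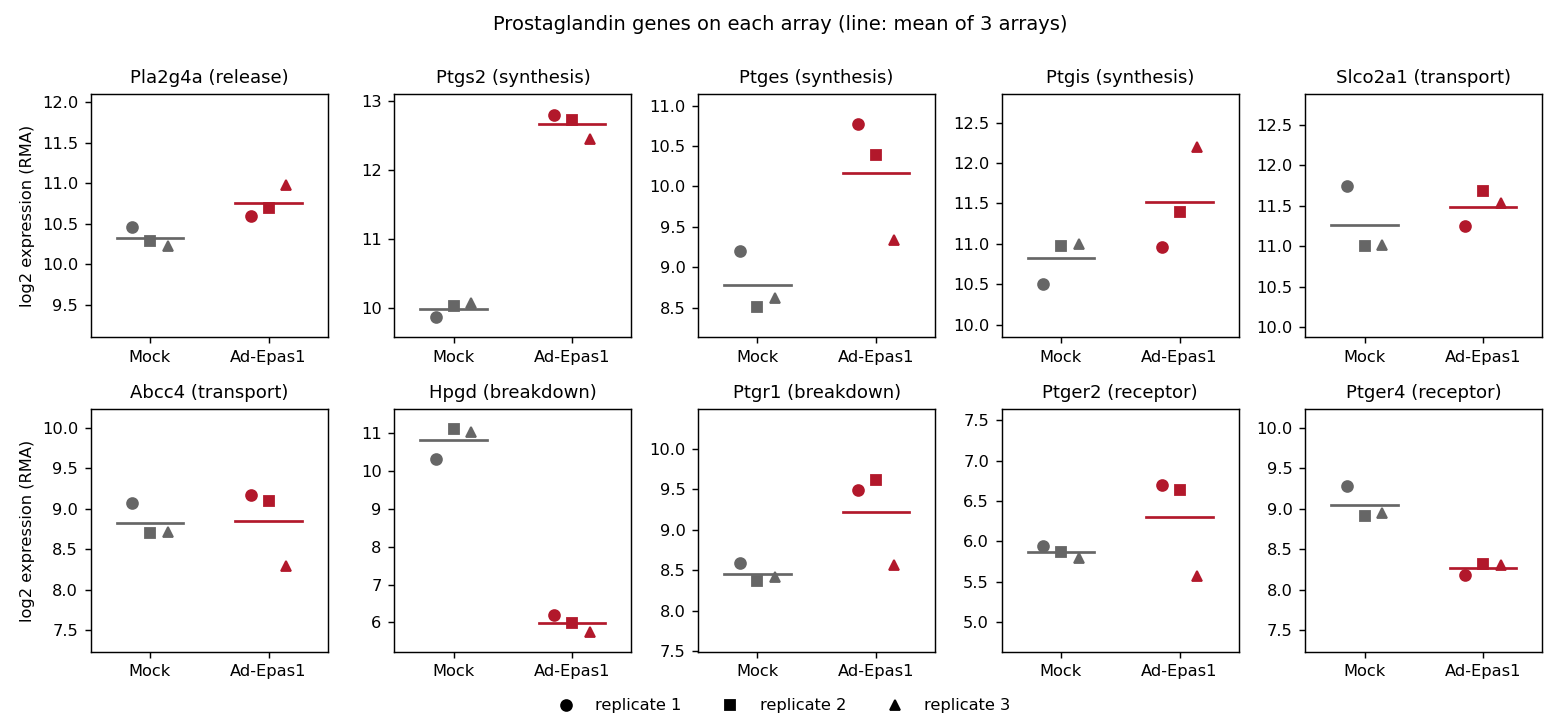
Level of each of the 10 genes on each array (log2, vertical axis, scaled per panel) in 3 Mock and 3 Ad-Epas1 arrays, with the shape giving the replicate and a line the mean. Ptgs2 and Hpgd separate widely on all arrays (Ptgs2 at 12.45 or above against 10.08 or below), while Ad-Epas1 3 falls back to the Mock range for Ptgr1 and below it for Ptger2.

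Pla2g4a, which encodes the cytosolic phospholipase A2 that releases arachidonic acid, stood at 10.46, 10.28 and 10.22 in Mock and at 10.59, 10.69 and 10.98 in Ad-Epas1. The groups did not overlap, Ad-Epas1 being the higher, by a margin smaller than the range within either group. The log2 difference of 0.43 (SE 0.12, 95% interval 0.14 to 0.72) did not pass (limma, adjusted p = 0.057), nor did it with any array left out. It did pass among genes above the median level (adjusted p = 0.043), with a trended and robust prior (0.045) and with array weights (0.0073).

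Ptgs2 encodes cyclooxygenase-2, the inducible enzyme of the committed step. Its values were 9.88, 10.03 and 10.08 in Mock and 12.80, 12.72 and 12.45 in Ad-Epas1. The Ad-Epas1 arrays were all high and close together, and the groups lay far apart. The rise of 2.66 (SE 0.11, 95% interval 2.39 to 2.92, adjusted p = 3.1e-04, limma) was 6.31-fold, and it ranged from 2.58 to 2.76 with each array left out, all of which passed. On Ad-Epas1 3, where macrophage markers were low, Ptgs2 was 2.45 above the Mock mean, against 2.81 and 2.72 on the others, and the rise without that array was 2.76. Ptgs1, the constitutive cyclooxygenase, was not analysed here.

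Ptges encodes the inducible membrane-bound synthase that makes prostaglandin E2 and is known to work with cyclooxygenase-2. It stood at 9.20, 8.51 and 8.62 in Mock and at 10.77, 10.39 and 9.34 in Ad-Epas1. Ad-Epas1 1 and 2 were clearly high, whereas Ad-Epas1 3 exceeded Mock 1 only narrowly. The rise of 1.39 (SE 0.37, 95% interval 0.50 to 2.28) lay at the threshold (limma, adjusted p = 0.0498). Without Ad-Epas1 3 the rise was 1.80 (SE 0.22, adjusted p = 0.0023), and without any other array it did not pass (adjusted p from 0.063 to 0.16). It did not pass with arrays centred on their medians (0.057) or with a trended and robust prior (0.079) either, nor when every probe set was tested, where the adjusted p was just past the threshold. The array with the smallest rise was the one with low macrophage markers, and the part of those cells in the result was not tested.

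The other synthases of prostaglandin E2 were close to level. Ptges2, a membrane-associated form, had 8.32, 8.22 and 8.23 in Mock and 8.11, 8.26 and 8.41 in Ad-Epas1, a difference of 0.01 (95% interval -0.22 to 0.23, adjusted p = 0.97, limma). Ptges3, a cytosolic form also known as a co-chaperone, differed by 0.01 (95% interval -0.15 to 0.17, adjusted p = 0.94), but at 4.92 to 5.03 its probe set lay below 6.62 on all arrays. The direction of both differences turned when arrays were centred on their medians.

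Ptgis encodes prostacyclin synthase. Its values were 10.50, 10.97 and 11.00 in Mock and 10.96, 11.40 and 12.20 in Ad-Epas1. The groups overlapped, since Ad-Epas1 1 was no higher than Mock 2 and 3, and the highest value was on Ad-Epas1 3. The difference of 0.70 (SE 0.31, 95% interval -0.05 to 1.44, limma, adjusted p = 0.18) did not pass, and it was 0.36 without Ad-Epas1 3 (adjusted p = 0.23). For this gene the macrophage-poor array was the high one, opposite to Ptges.

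**Figure D2:**
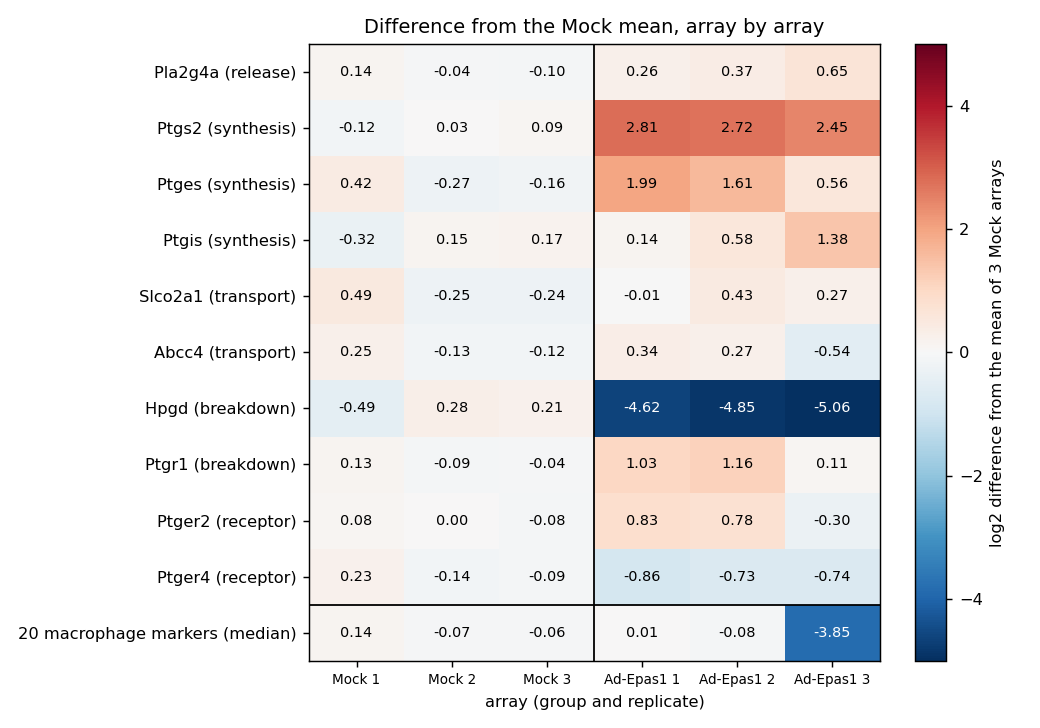
Difference of each gene from the mean of the 3 Mock arrays (log2, colour and number) on each of the 6 arrays, with the median of 20 macrophage markers as the last row. Ptgs2, Hpgd and Ptger4 keep their size on Ad-Epas1 3, where the macrophage median is -3.85, while Ptgr1 (0.11) and Ptger2 (-0.30) do not.

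Neither transporter gene passed. Slco2a1 encodes the prostaglandin transporter, a carrier known for uptake before breakdown, and stood at 11.75, 11.01 and 11.02 in Mock and at 11.25, 11.69 and 11.53 in Ad-Epas1. Mock 1 was the highest of all 6 arrays, so the groups overlapped. The difference was 0.23 with a 95% interval from -0.30 to 0.75 (limma, adjusted p = 0.51), and 0.47 without Mock 1 (adjusted p = 0.086). Abcc4, an export pump that carries prostaglandins and cyclic nucleotides, stood at 9.07, 8.70 and 8.71 in Mock and at 9.17, 9.09 and 8.29 in Ad-Epas1. Its lowest value was on Ad-Epas1 3 and its difference was 0.02 (95% interval -0.56 to 0.60, limma, adjusted p = 0.96). The sign of that difference turned when any 1 of Mock 2, Mock 3, Ad-Epas1 1 and Ad-Epas1 2 was left out, and with arrays centred on their medians.

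Hpgd encodes the dehydrogenase that begins the inactivation of prostaglandin E2. Its levels were 10.33, 11.10 and 11.04 in Mock and 6.21, 5.98 and 5.76 in Ad-Epas1. Every Ad-Epas1 array was low, and none came near the lowest Mock array. The difference of -4.84 (SE 0.22, 95% interval -5.37 to -4.32, limma, adjusted p = 3.1e-04) passed with each array left out, between -5.09 and -4.70. It was -4.73 without Ad-Epas1 3, and on that array alone Hpgd was at -5.06 from the Mock mean, so the macrophage-poor array did not differ in direction or by much in size. The Ad-Epas1 values lay below 6.62, the olfactory reference, so the size of this difference is not exact.

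Ptgr1 encodes a reductase that acts after the dehydrogenase, on the oxidised prostaglandin, and that also reduces leukotriene B4. It stood at 8.59, 8.36 and 8.42 in Mock and at 9.49, 9.62 and 8.56 in Ad-Epas1. Ad-Epas1 1 and 2 were high and Ad-Epas1 3 was within the Mock range. The difference of 0.77 (SE 0.27, limma, adjusted p = 0.10) did not pass, whereas without Ad-Epas1 3 Ptgr1 rose by 1.10 (SE 0.09, adjusted p = 7.0e-04). With array weights it rose by 1.09 (adjusted p = 0.0020). The array that lacked the rise was the macrophage-poor one, and the part of those cells was not tested.

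Ptger2 and Ptger4 encode the prostaglandin E2 receptors EP2 and EP4, which both raise cyclic AMP. Ptger4 stood at 9.28, 8.91 and 8.95 in Mock and at 8.18, 8.32 and 8.30 in Ad-Epas1. The groups did not overlap and the Ad-Epas1 arrays lay within a narrow range. Its difference of -0.78 (SE 0.11, 95% interval -1.04 to -0.51, adjusted p = 0.0069, limma), a 1.71-fold lower level, passed with each array left out, from -0.85 to -0.66 (adjusted p up to 0.033). On Ad-Epas1 3 it was at -0.74 from the Mock mean, between the other arrays of its group.

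Ptger2 had 5.94, 5.87 and 5.79 in Mock and 6.70, 6.64 and 5.57 in Ad-Epas1. Ad-Epas1 1 and 2 were high and Ad-Epas1 3 was the lowest of all arrays. The difference of 0.44 (SE 0.29, limma, adjusted p = 0.34) did not pass, but without Ad-Epas1 3 Ptger2 rose by 0.80 (SE 0.08, adjusted p = 0.0010). With array weights it rose by 0.71 (adjusted p = 0.013). All Mock values and that of Ad-Epas1 3 were below 6.62, and the other values were barely above it, so the size of the difference is not exact. The macrophage-poor array again lacked the rise, and the part of those cells was not tested.

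**Figure D3:**
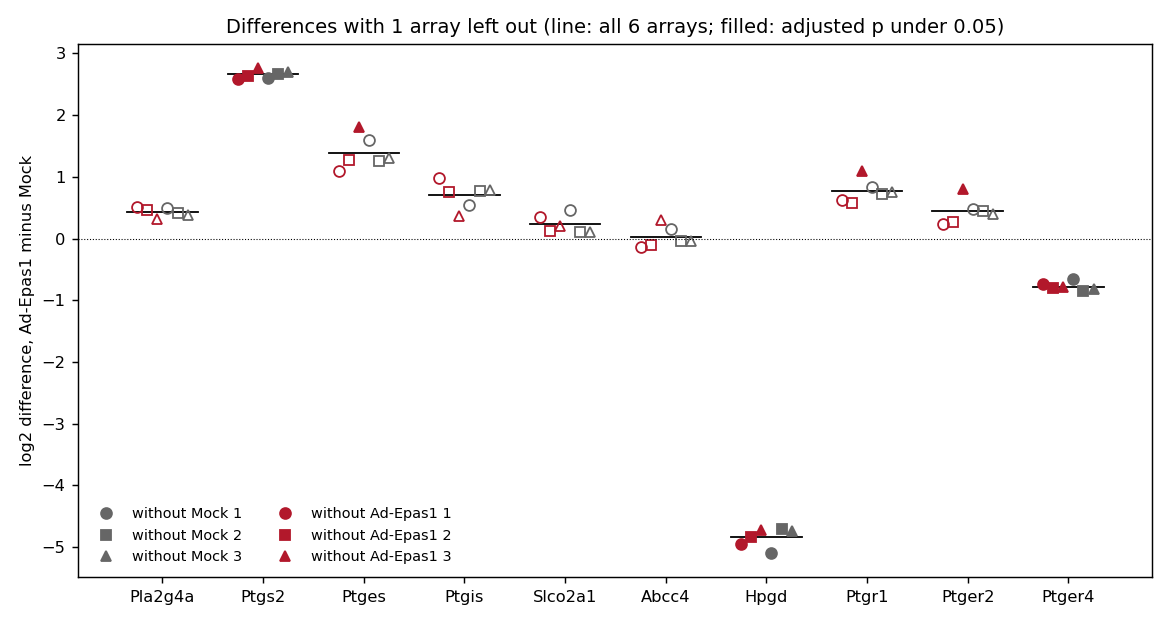
Log2 difference (Ad-Epas1 minus Mock, vertical axis) of each gene with 1 array left out, by symbol and colour, and with all 6 arrays as a line. Filled symbols have an adjusted p under 0.05: Ptgs2, Hpgd and Ptger4 pass in all 6 cases, and Ptges, Ptgr1 and Ptger2 pass only without Ad-Epas1 3.

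Beyond the members, 73 measured genes of eicosanoid release, synthesis, breakdown, transport, reception and of the leukotriene and lipoxygenase branch were listed from pathway knowledge. Of these 5 rose, 9 fell and 59 did not pass (limma), a share called of 19.2% against 16.3% of all genes. Their median difference of 0.08 was close to 0.05 over all genes. Among genes above the median level 13 of 41 from these lists were called, beside 3558 of all 11090 such genes. The count of 14 became 25 when Ad-Epas1 3 was left out and 9 when Ad-Epas1 1 was. It became 6 when Ad-Epas1 2, Mock 2 or Mock 3 was left out. Over all 22180 genes the count of 3620 became 5390, 2186, 1512, 1187 and 1181 in the same order.

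Among 26 genes of phospholipid and arachidonate release, 2 rose, 4 fell and 20 did not pass (limma, median 0.11). That was 23.1% called, against 16.3% of all genes. The largest called difference was that of Pla2g15, a lysosomal phospholipase, which fell by 0.88 (SE 0.08, adjusted p = 0.0021; its dimmer probe set differed by -0.26, adjusted p = 0.10). Daglb, a lipase that makes the endocannabinoid 2-arachidonoylglycerol, fell by 0.76 (SE 0.09, adjusted p = 0.0039), and Pla2g5, a secreted phospholipase A2, fell by 0.68 (SE 0.11, adjusted p = 0.011). These 3 passed with each array left out. Faah, which degrades the endocannabinoid anandamide, fell by 0.32 (adjusted p = 0.047), a call kept only when Ad-Epas1 3 was the array left out (0.16 at most otherwise). Pla2g12a, a secreted form, rose by 0.52 (adjusted p = 0.018), and Pla2g6, the calcium-independent form, rose by 0.31 (adjusted p = 0.031). Pla2g12a did not pass without Mock 2, Mock 3 or Ad-Epas1 2 (up to 0.083), and Pla2g6 did not without these or Ad-Epas1 1 (up to 0.13).

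Pla2g7, which encodes a secreted enzyme that degrades platelet-activating factor and was named after its values were seen, stood at 6.91, 6.13 and 6.16 in Mock and at 10.08, 8.83 and 5.65 in Ad-Epas1. Its difference was 1.79 over all arrays (limma, adjusted p = 0.28) and 3.05 without Ad-Epas1 3 (adjusted p = 0.0027), with Mock 2 and 3 below 6.62. Ad-Epas1 1 and 2 were high and Ad-Epas1 3 was below the Mock arrays, and the part of macrophages was not tested.

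Among 6 other synthases, 1 fell and 5 did not pass (limma, median -0.14), 16.7% called against 16.3% of all genes. Tbxas1, thromboxane synthase, stood at 9.01, 8.60 and 8.74 in Mock and at 7.81, 7.52 and 6.58 in Ad-Epas1, and fell by 1.48 (SE 0.31, adjusted p = 0.022). It did not pass without Mock 1, 2 or 3 or Ad-Epas1 2 (adjusted p up to 0.082), and it was lowest on the macrophage-poor array. Without that array its fall was 1.12. Hpgds, which makes prostaglandin D2 in blood-derived cells and was named after its values were seen, had 9.23, 9.27 and 9.28 in Mock and 8.79, 8.09 and 5.41 in Ad-Epas1. It differed by -1.83 over all arrays (adjusted p = 0.17) and by -0.82 without Ad-Epas1 3 (adjusted p = 0.024). Its value on Ad-Epas1 3 lay below 6.62, so the size over all arrays is not exact.

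In breakdown, 0 of 5 other genes passed (limma), where 16.3% of all genes did, and 2 had an unadjusted p under 0.05. In transport it was 0 of 9, and 2 had an unadjusted p under 0.05. Without Ad-Epas1 3, where 24.3% of all genes passed, 1 transport gene rose and 1 fell. Abcc1, an export pump of the same family as Abcc4, was then at 0.87 (limma, adjusted p = 0.0067; 0.66 and 0.078 over all arrays), and Slco4a1, an organic anion carrier, was at -0.54 (adjusted p = 0.038; -1.04 and 0.13 over all arrays). So Hpgd was the only gene called in either direction among the 7 measured genes of breakdown over all 6 arrays. Among the 6 remaining receptor genes, 5 did not pass and 1 was called, upward (limma, median 0.12), a share of 16.7%. Ptgdr, a prostaglandin D2 receptor, rose by 0.23 (adjusted p = 0.045) from a level below 6.62, and did not pass with any array left out (adjusted p up to 0.16). Its other probe set differed by 0.04. Ptger3, which encodes the receptor EP3, differed by -0.02 (95% interval -0.22 to 0.18, adjusted p = 0.87).

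**Figure D4:**
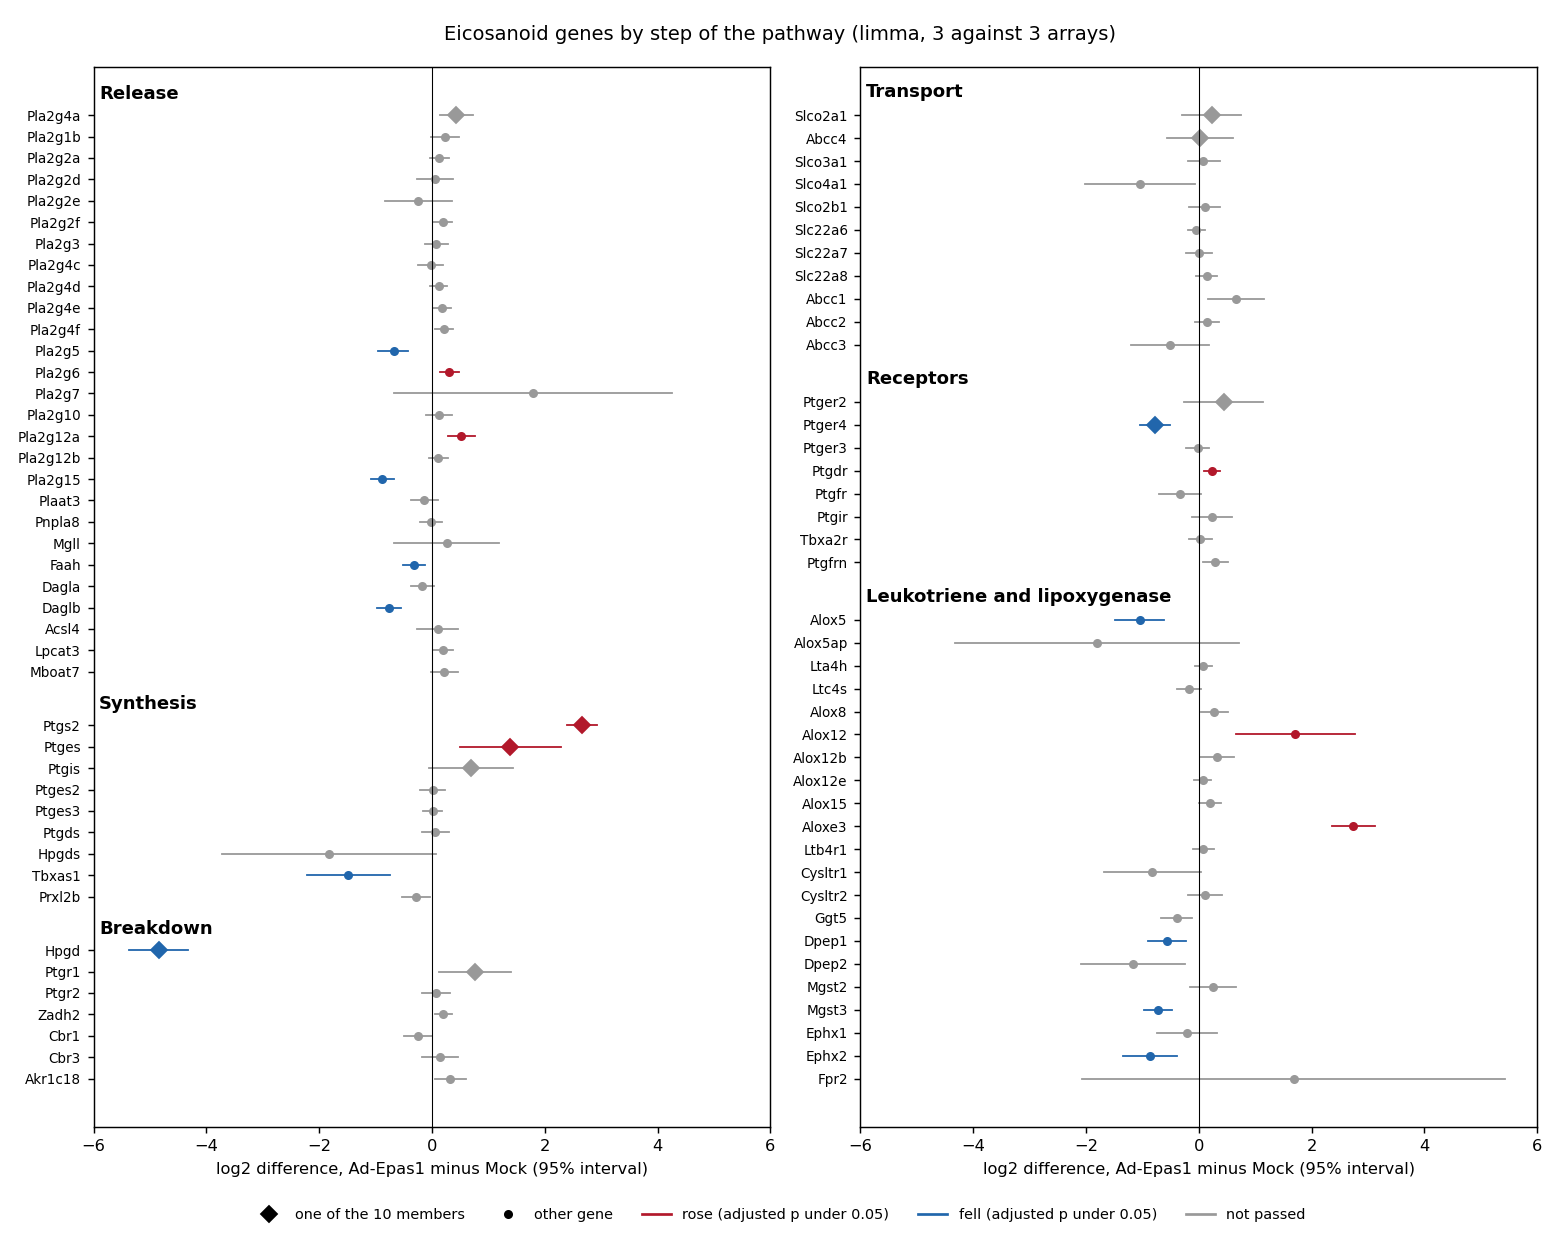
Log2 difference (Ad-Epas1 minus Mock, horizontal axis) with its 95% interval for the 10 members (diamonds) and 73 other eicosanoid genes (circles), grouped by step, with colour for genes that rose or fell at an adjusted p under 0.05. Hpgd at -4.84 stands farthest to the left, and Aloxe3 at 2.74 and Ptgs2 at 2.66 are the called genes farthest to the right.

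In the leukotriene and lipoxygenase branch, which shares arachidonic acid with the cyclooxygenases, 2 of 21 genes rose, 4 fell and 15 did not pass (limma, median 0.07). That was 28.6% called, against 16.3% of all genes. Without Ad-Epas1 3, 5 rose and 8 fell, where 24.3% of all genes passed, 10.3% upward and 14.0% downward. Aloxe3, an epidermal-type lipoxygenase known from the skin barrier, rose from 6.83, 6.42 and 6.49 to 9.57, 9.07 and 9.31 (2.74, SE 0.16, adjusted p = 4.8e-04), and passed with each array left out. On the macrophage-poor array it was 2.73 above the Mock mean. Its values on Mock 2 and 3 lay below 6.62, so the size of the difference is not exact. Alox12, a platelet-type lipoxygenase, rose by 1.71 (SE 0.45, adjusted p = 0.045), with 9.66, 8.57 and 7.72 in Ad-Epas1. It was 2.17 without Ad-Epas1 3, and it did not pass without Mock 1, 2 or 3 or Ad-Epas1 2 (up to 0.15).

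Alox5, which starts leukotriene synthesis, fell by 1.05 (SE 0.18, adjusted p = 0.013) and passed with each array left out, although its dimmer probe set differed by 0.15 (adjusted p = 0.20). Its Ad-Epas1 values of 6.60, 6.51 and 6.18 lay below 6.62, so the size of this fall is not exact either. Its partner gene Alox5ap, named after its values were seen, stood at 11.28, 11.08 and 11.00 in Mock and at 10.77, 10.61 and 6.59 in Ad-Epas1 (-1.80, adjusted p = 0.29, and -0.43 without Ad-Epas1 3, adjusted p = 0.029). That drop on Ad-Epas1 3, to a value below 6.62, moved with the macrophage markers, and their part was not tested. Mgst3, a microsomal glutathione transferase, fell by 0.72 (SE 0.10, adjusted p = 0.0071), and passed with each array left out as well. Ephx2, which hydrolyses epoxides of arachidonic acid, fell by 0.87 (adjusted p = 0.032), but did not pass without Mock 2 or 3 or Ad-Epas1 1 or 2 (up to 0.12). Dpep1, a dipeptidase that trims leukotriene D4, fell by 0.56 (adjusted p = 0.040), again a call kept only when Ad-Epas1 3 was the array left out (0.095 at most otherwise).

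Downstream of the receptors, 61 genes of cyclic AMP signalling, of its response and of Ptgs2 control were listed. Of these 11 rose, 11 fell and 39 did not pass (limma), 36.1% called against 16.3% of all genes, with a median of -0.07. Among genes above the median level 21 of 52 from these lists were called, beside 3558 of all 11090 such genes. The count of 22 became 28 when Ad-Epas1 3 was left out, 14 for Ad-Epas1 1, 9 for Ad-Epas1 2, 5 for Mock 2 and 6 for Mock 3. Over all 22180 genes the count of 3620 became 5390, 2186, 1512, 1187 and 1181 in the same order. In the signalling machinery 1 of 35 rose, 6 fell and 28 did not pass (median -0.10), and without Ad-Epas1 3, 2 rose and 10 fell. Adcy9, an adenylyl cyclase, fell by 0.81 (SE 0.11, adjusted p = 0.0062) and passed with each array left out. Adcy2, another adenylyl cyclase, fell by 1.01 (adjusted p = 0.012), but did not pass without Mock 2 (0.058). It was lowest on Ad-Epas1 3 and differed by -0.81 without that array. The catalytic subunits of protein kinase A, Prkaca (-0.49, adjusted p = 0.0099; dimmer probe set -0.19, 0.22) and Prkacb (-0.40, adjusted p = 0.015), and Crtc3, a coactivator of CREB (-0.40, adjusted p = 0.016), were lower as well. Arrb1, a beta-arrestin that dampens receptor signals, rose by 0.72 (adjusted p = 0.013). Without Mock 2 or 3 these 4 genes did not pass, nor did Prkacb, Crtc3 and Arrb1 without Ad-Epas1 2 (up to 0.073).

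Of 11 genes known to respond to cyclic AMP, 6 rose, 1 fell and 4 did not pass (limma, median 0.42). The share called was 63.6%, against 16.3% of all genes, in a list chosen with earlier results known. Each of these genes also responds to other signals. Sik1, a kinase of the CREB feedback, rose from 8.90, 8.50 and 8.54 to 10.41, 10.31 and 10.12 (1.63, SE 0.13, adjusted p = 0.0013). Nr4a3, an orphan nuclear receptor, rose from 6.51, 6.45 and 6.67 to 7.88, 8.18 and 7.47 (1.30, SE 0.18, adjusted p = 0.0057). Both passed with each array left out, and both were high on the macrophage-poor array too. Nr4a3 lay below 6.62 on Mock 1 and 2, so its rise is not exact in size. Pde10a, a phosphodiesterase, rose by 0.85 (adjusted p = 0.016), Nr4a1 by 0.42 (0.037) and Fosb by 0.49 (0.042). Without Ad-Epas1 3 Pde10a was at 1.03. Crem, named after its values were seen, rose by 0.35 and lay at the threshold (limma, adjusted p = 0.0499). With 1 array left out Crem passed only when that was Ad-Epas1 3 (0.17 at most otherwise). Pde10a did not pass without Mock 2 or 3 or Ad-Epas1 1 or 2 (up to 0.074), Nr4a1 without Mock 1, 2 or 3 or Ad-Epas1 2 (up to 0.13), and Fosb with any array left out other than Ad-Epas1 3 (up to 0.14). Rgs2, a brake on G protein signals, went the other way with a fall of 1.74 (adjusted p = 0.019), which did not pass without Mock 2 or 3 (up to 0.080), and its dimmer probe set differed by -0.11. Rgs2 was lowest on Ad-Epas1 3, at -2.58 from the Mock mean against -1.46 and -1.19 on Ad-Epas1 1 and 2. Without Ad-Epas1 3 its difference was -1.32.

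Of 15 genes known to control Ptgs2 transcription, its messenger stability or its substrate supply, 4 rose, 4 fell and 7 did not pass (limma, median -0.01). The share called was 53.3%, against 16.3% of all genes, again in a list chosen with earlier results known. The called regulators of messenger stability or translation pointed both ways. Zfp36 rose by 0.77 (adjusted p = 0.024) and Khsrp fell by 0.27 (adjusted p = 0.048). Zfp36 passed with 1 array left out only when that was Ad-Epas1 3 (a difference of 0.97), and Khsrp did not pass with any left out. Celf2, an RNA-binding protein, fell by 1.03 (SE 0.12, adjusted p = 0.0034; its dimmer probe set differed by 0.00), Tia1, which restrains Ptgs2 translation, fell by 0.43 (adjusted p = 0.014), and Zfp36l1, which promotes messenger decay, rose by 0.63 (adjusted p = 0.023; dimmer probe set 0.47, 0.098). Anxa1, an inhibitor of phospholipase A2, fell by 0.66 (SE 0.10, adjusted p = 0.0086). Of the transcription factors, Cebpb rose by 0.52 (adjusted p = 0.011) and Rela, an NF-kB subunit, by 0.45 (adjusted p = 0.022). Celf2 and Anxa1 passed with each array left out. Without Mock 2 or 3 Cebpb, Tia1, Rela and Zfp36l1 did not, without Ad-Epas1 2 Tia1, Rela and Zfp36l1 did not, and without Ad-Epas1 1 Rela and Zfp36l1 did not (up to 0.096).

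The genes whose 6 array values ran closest to those of Ptgs2, each centred on its own mean, were Ereg, Lif and Fbxo32, with root mean square differences of 0.12, 0.19 and 0.19 on the log2 scale. Ereg, which encodes the growth factor epiregulin, stood at 8.93, 9.19 and 9.17 in Mock and at 11.72, 11.89 and 11.29 in Ad-Epas1, and its other probe set gave a smaller difference (0.71 against 2.54). Lif, a cytokine of the interleukin-6 family, differed by 2.56, and Fbxo32, a subunit of a ubiquitin ligase known from muscle wasting, by 2.99. Closest to Hpgd were Rspo2, an enhancer of Wnt signalling (0.62), Ccna2, a cyclin (0.80), and Anln, a cytokinesis protein (0.86), all at a larger distance than the neighbours of Ptgs2. Rspo2 stood at 7.25, 7.77 and 8.32 in Ad-Epas1 and Ccna2 at 6.54, 6.54 and 7.37. In both, Ad-Epas1 3 was the highest of its group, whereas for Hpgd it was the lowest. The likeness was measured over 6 arrays in 2 groups, so it includes the difference between the groups.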

How the data were processed

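The authors deposited log2 values for each probe set. The submitters' processing notes name RMA, which corrects background, normalizes by quantiles and summarizes probes, and Affymetrix Expression Console version 1.3.1. No source used here gives the genome build. Quantile normalization hides a change shared by most genes, and probe summaries compress large folds. All 6 value columns belonged to the 6 samples. Of 41345 probe sets, 23521 had 1 gene symbol, 1814 several and 16010 none; taking the probe set with the highest mean left 22180 genes, with no filter on level. Samples were grouped by title. The 3 arrays of each group entered limma 3.58.1 (lmFit, then eBayes; R 4.3.3). Its two-sided p-values were adjusted by Benjamini-Hochberg over 22180 genes, and a gene was called under 0.05. SE is the moderated standard error. An exact permutation test of 3 against 3 cannot go below p = 0.1. The script was tested on simulated data with known changes. The members and lists were chosen with earlier results of these data known. Of 81 listed eicosanoid genes 73 were measured, and of 65 signalling genes 61. Named were all members, up to 6 called genes of each list with the smallest p, Ptges2, Ptges3 and Ptger3 whatever their p, and the 3 genes nearest to Ptgs2 and Hpgd. Hpgds, Alox5ap, Pla2g7, Abcc1, Slco4a1, Zfp36, Khsrp, Crem and the single cell type markers were added after their values were seen. Ptgs1 and Ptger1, also in that rule, were not analysed here. Alternatives were a replicate block, each array left out, a second quantile step, centring on array medians, genes above the median level, a trended and robust prior, array weights, the mean over probe sets, and every probe set tested.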

Additional observations from a re-analysis of the deposited data

How the results depend on the processing

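Ptgs2, Hpgd and Ptger4 kept their direction and their call under every alternative run. Over all genes 1458 rose and 2162 fell; centring arrays on their medians gave 1080 and 2742, and a second quantile step 1913 and 1731. Array weights, which gave Ad-Epas1 replicate 3 a weight of 0.293, raised the counts to 7791 of all genes, 7 members and 34 other eicosanoid genes; the cause was not tested. With 1 array left out, the counts ranged from 1181 to 5390 for all genes, 3 to 6 for the members, 6 to 25 for other eicosanoid genes and 5 to 28 for signalling and response genes. Differences near 0 changed sign: Abcc4 was at -0.03 and Ptges2 at -0.05 with centred arrays, Ptges3 at -0.04 there, -0.06 after a second quantile step and -0.02 with array weights, and Ptger3 at 0.01 with array weights. With 1 array left out, Abcc4 ranged from -0.14 to 0.30, Ptges2 from -0.07 to 0.08, Ptges3 from -0.02 to 0.04 and Ptger3 from -0.10 to 0.03. The deviations from the group means of same-numbered samples correlated at 0.34, -0.19 and 0.21, and those of differently numbered samples at -0.33 to 0.27. Deviations from a mean of 3 arrays depend on each other, so these values cannot decide whether the numbers pair the samples. With the replicate number as a block, 3108 genes, 4 members, 13 other eicosanoid genes and 19 signalling genes were called. The mean over probe sets brought Alox5 to -0.45, Rgs2 to -0.92 and Ereg to 1.62, through their dimmer probe sets. With every probe set tested, or with centred arrays, Ptges was not called and 3 members were. Values below 6.62 limit the size of a difference. Among the genes named, cell type markers aside, they were those of Hpgd and Alox5 in Ad-Epas1 and of Ptger2, Aloxe3, Nr4a3 and Pla2g7 in Mock. Tbxas1, Hpgds, Alox5ap, Pla2g7 and Ptger2 lay below it on Ad-Epas1 3, and Ccna2 on Ad-Epas1 1 and 2. Ptger3 did so on 5 arrays, and Ptgdr and Ptges3 on all arrays.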
